A study of Homo sapiens with 6 samples.

Results

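LAMP1 and LAMP2 encode the most abundant glycoproteins of the membrane that bounds the lysosome. They are 2 of the 22152 genes in the expression table and were found there by name (LAMP1, ENSG00000185896; LAMP2, ENSG00000005893). LAMP1 was selected because its level was lower with the miR-21-3p mimic in a very even manner over replicates, and LAMP2 was set beside it as its closest relative. The values of both genes in the comparison of mimic with control are therefore the values that chose them. They are given as a description and without a test.

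The cells were HaCaT, a spontaneously immortalised line of human keratinocytes (KCs). They were transfected either with a negative control mimic (NC), a synthetic small RNA used as the reference, or with a synthetic mimic of miR-21-3p, the passenger strand of the miR-21 precursor. Both were used at 1 nM and RNA was taken after 48 h. There were 3 biological replicates of each, and polyadenylated RNA was sequenced from stranded libraries. The comparison asks which transcripts of KCs change in level when miR-21-3p is raised.

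Lysosomes break down material that reaches them by endocytosis and autophagy. Their membrane is lined on the inner side by a dense coat of sugars, and LAMP1 and LAMP2 carry much of it as long chains attached to asparagine residues. Both proteins cross the membrane once and end in a short cytosolic tail that directs them to the lysosome. LAMP2 is made in several forms that differ in their last exon. The form LAMP2A is the receptor of chaperone-mediated autophagy, in which single cytosolic proteins are carried across the lysosomal membrane, and loss of LAMP2 causes Danon disease, a disorder of autophagy in heart and skeletal muscle. LAMP1 is widely used as a marker of lysosomes and, at the cell surface, of lysosomes that have fused with the plasma membrane.

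The 6 libraries were of similar depth. The reads assigned to genes numbered 24405508, 24528233 and 26171344 in NC replicates 1, 2 and 3, and 24808290, 24981070 and 27985931 in the mimic replicates in the same order. These totals were recovered from rounded values and are close estimates. Levels are given as normalised read counts, which are reads divided by a factor for the depth of each library. The keratinocyte markers were high in every library. KRT5, a keratin of basal KCs, ranged from 123000 to 139000 normalised counts, and 9 of 10 keratinocyte markers were in the table. The summed level of these 9 was 333590, 319380 and 334080 in NC and 335260, 347120 and 321760 with the mimic. Of these 9, KRT6A was higher with the mimic (log2 fold change 0.34, limma adjusted p = 0.00203) and ITGB4 was lower (-0.26, limma adjusted p = 0.0381). These 2 were 22.2% of the markers measured, beside 10.8% of all genes tested. For ITGB4 the groups overlapped, with NC replicate 2 at 17700 and mimic replicate 2 at 17900.

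Few markers of other cell types could be followed, and the remaining ones were not analysed here. Of 6 fibroblast markers only COL1A1 was measured, at 560, 390 and 478 normalised counts in NC and 372, 378 and 364 with the mimic. Of 5 melanocyte markers only PMEL was measured, at 120 to 155. Of 5 leukocyte markers only CD14 was measured, at 58.7 to 92.2. Of 5 endothelial markers, VWF and CDH5 were measured, with a summed level of 1197, 1087 and 1119 in NC and 877, 925 and 883 with the mimic. VWF, the more abundant, was at 720, 801 and 726 in NC and 712, 747 and 761 with the mimic (log2 fold change -0.02, limma adjusted p = 0.893). The lower sum came from CDH5, which was at 477, 286 and 393 in NC and 165, 178 and 122 with the mimic (-1.30, limma adjusted p = 0.00258). The markers called measured here are those with a mean of at least 10, so none could be at 0 in all libraries. Their part in the results below was not tested. In bulk RNA, fewer cells of a kind and less RNA per cell cannot be told apart.

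NC replicate 2 lay nearer to the mimic libraries than the other NC libraries did. A chi-square per degree of freedom of the read counts, which is near 1 when libraries differ by counting error alone, was 3.44 between NC replicates 1 and 2, 2.26 between NC replicates 1 and 3 and 2.15 between NC replicates 2 and 3. Against the 3 mimic libraries, NC replicate 2 gave 2.45, 2.49 and 3.24, NC replicate 1 gave 5.41, 4.68 and 7.61, and NC replicate 3 gave 4.17, 3.35 and 6.08. No pair of libraries was close enough to be a repeat of the same library. Of the 1600 genes that passed the test below, NC replicate 2 was the NC library nearest to the mimic mean in 1246, which is 77.9%. The counts of genes that passed, over all genes and in the lists below, are therefore also given with single libraries left out, this one among them.

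LAMP1 was lower in every mimic library than in every NC library. Its level was 9990, 10000 and 9750 normalised counts in NC replicates 1 to 3 and 7390, 7190 and 7180 in mimic replicates 1 to 3. The groups did not overlap, and the highest mimic library lay 2360 normalised counts below the lowest NC library. This gap was 23.8% of the NC mean. NC replicate 2 had the highest LAMP1 level of the 6 libraries.

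The mean of LAMP1 was 9913 ± 142 normalised counts in NC and 7253 ± 118 with the mimic (SD, n = 3 each), a level 26.8% lower. On the log2 scale the difference was -0.45 (standard error 0.041). The replicates of a group were very close to each other. The coefficient of variation was 1.43% in NC and 1.63% with the mimic, beside 1.08% from the counting of reads alone at this depth. Only 1.51% of the 14782 genes tested had a smaller spread around their group means. This is a description, since LAMP1 was selected for its even values and its level was above that of 97.5% of the genes tested, over all of which the spread was compared. Its log2 difference was the 394th from the lowest.

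LAMP2 had nearly the same level in both groups. It was 6050, 6100 and 6510 normalised counts in NC and 6040, 6230 and 5720 with the mimic, so that the ranges overlapped. The mean was 6220 ± 252 in NC and 5997 ± 258 with the mimic (SD, n = 3 each). The log2 difference was -0.05 (standard error 0.048).

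**Figure D1:**
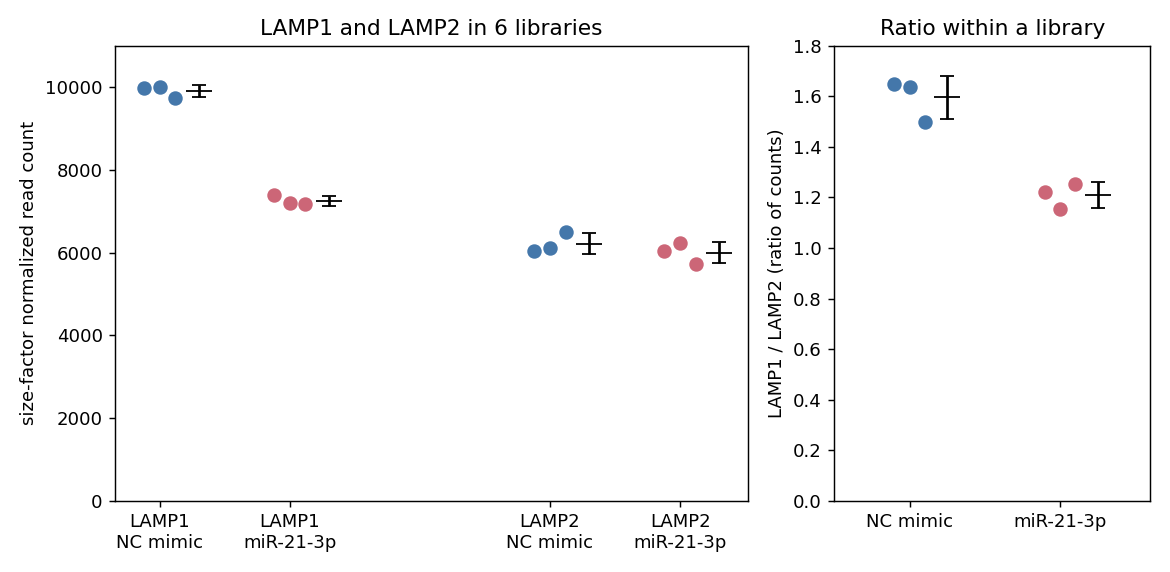
Normalised read counts of LAMP1 and LAMP2 in each library (left) and the ratio of LAMP1 to LAMP2 counts within each library (right). Points are libraries in replicate order, and black marks are the mean with the SD of 3 libraries. The 3 LAMP1 points with the mimic lie between 7180 and 7390, below the NC points at 9750 to 10000, while the LAMP2 points of both groups overlap.

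The ratio of the 2 genes within a library does not depend on how the library was scaled. The log2 ratio of LAMP1 to LAMP2 counts was 0.72, 0.71 and 0.58 in NC and 0.29, 0.21 and 0.33 with the mimic. The mean was 0.67 ± 0.08 in NC and 0.28 ± 0.06 with the mimic (SD, n = 3 each). The groups did not overlap, and the difference of the means was -0.40. As LAMP1 was selected on this contrast, the ratio is a description too.

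Which of the 2 genes had the higher level per length depended on the LAMP2 form that is assumed. Counts per kilobase were computed with the protein-coding transcripts of GENCODE version 29, because a longer transcript collects more reads. LAMP1 has a transcript of 2699 bases, which gave 3673 normalised counts per kilobase in NC and 2687 with the mimic. The LAMP2 transcripts LAMP2-201, LAMP2-203 and LAMP2-202 have 1867, 2089 and 4030 bases. With these lengths the level of LAMP1 over that of LAMP2 was 1.10, 1.23 and 2.38 in NC and 0.84, 0.94 and 1.81 with the mimic. The level of LAMP1 per kilobase was thus above that of LAMP2 in NC under all 3 lengths. With the mimic it was above LAMP2 only under the longest. The reads were counted per gene, so LAMP2A could not be told from the other forms.

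To set both genes beside the other lysosome membrane genes, levels were ordered per length. Per kilobase of the longest protein-coding transcript, LAMP1 was the second of 42 lysosome membrane genes in NC and the fourth with the mimic. In NC it stood between TMBIM1 at 4201 and LAPTM4A at 3645 normalised counts per kilobase. The distance between LAMP1 and LAPTM4A was smaller than the SD of LAMP1 over the NC libraries (52.4 per kilobase). With the mimic LAPTM4A at 3603 and CD63 at 3206 were above LAMP1 at 2687. LAMP2, at its longest transcript, was the seventh in both groups, with 1543 in NC and 1488 with the mimic.

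Over all genes, 1600 of 14782 tested genes (10.8%) passed the limma test at an adjusted p under 0.05. Of these, 691 (4.67%) were lower and 909 (6.15%) were higher with the mimic, and the median log2 fold change of all genes was close to 0 (0.004). The 3 mimic values were all below the 3 NC values in 14.8% of the genes and all above them in 16.5%. LAMP1 belongs to the first kind by its selection and LAMP2 to neither. Without NC replicate 2, 2963 genes passed, and without NC replicate 3 only 179 did, the highest and lowest counts when a library was left out. In the fit without NC replicate 2, LAMP1 had a log2 difference of -0.44.

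**Figure D2:**
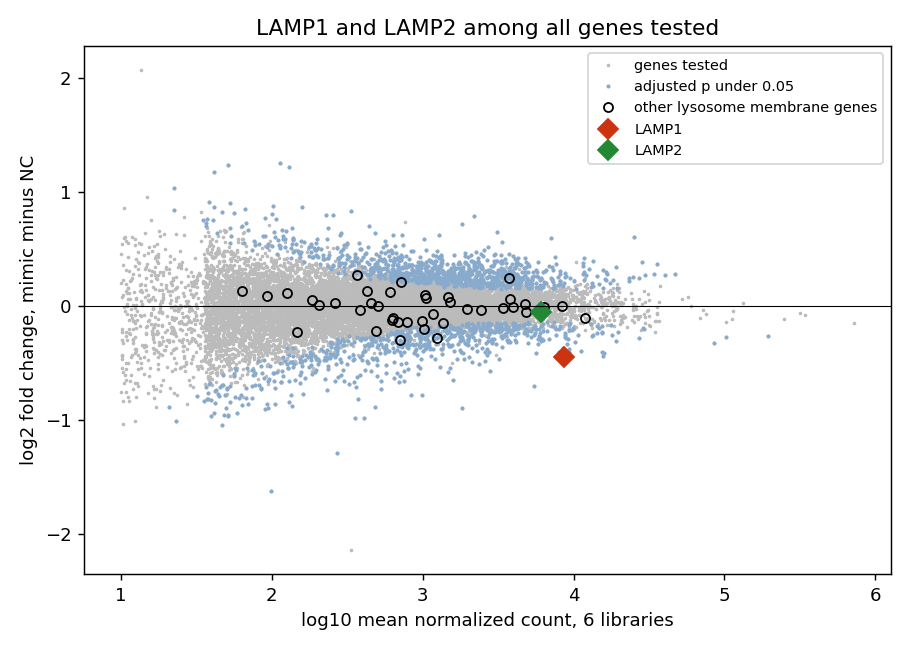
Log2 fold change (mimic minus NC) against the log10 mean normalised count for the 14782 genes tested; blue points passed the limma test and open circles are the other 40 lysosome membrane genes. LAMP1 at -0.45 lies below all of the open circles, and LAMP2 at -0.05 lies among them.

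Ordered by the limma statistic, LAMP1 was the second of the 7235 genes with a lower mean, which restates how it was selected. RPL10, a protein of the large ribosomal subunit, came after it with 3630, 3820 and 3780 normalised counts in NC and 2680, 2740 and 2710 with the mimic. The log2 difference of RPL10 was -0.47. DAPK2, SLC11A2, SDCBP2 and RP1-124C6.1 followed. SLC11A2, also known as DMT1, carries iron across endosomal membranes, and its log2 difference was -0.47. Among all genes ordered by p, LAMP1 was at place 2 in the main fit. Under the alternative settings its place ran from 1 to 23, the last without NC replicate 2.

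The genes whose level followed that of LAMP1 most closely over the 6 libraries were LMBR1L, NRP2, CEP350, SGPL1 and CAMSAP2, each with a Pearson r of 0.99 on log2 CPM (reads scaled to a common library total) among 10132 genes compared. All of them had lower values with the mimic, with log2 differences from -0.34 for LMBR1L to -0.17 for NRP2. The 6 points fall into the groups that were compared, so a gene with an even difference between them has a high r by construction. LAMP2 was far down this order, at place 3083 with r = 0.47. The genes closest to LAMP2 were BROX, ZNF12, KLF10, CIR1 and RIT1, which had small log2 differences from -0.11 for KLF10 to -0.03 for ZNF12.

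Of 12 neighbouring genes on the chromosomes, 8 were tested and 0 passed, beside 10.8% of all genes. The other 4, with 1 of the genes directly beside LAMP2 among them, were not analysed here. The neighbours were taken by their order in RefSeq, a choice made after the data had been seen. Around LAMP1 on chromosome 13, PCID2 had a log2 fold change of -0.08, CUL4A of 0.02, GRTP1 of -0.02 and ADPRHL1 of -0.22. Around LAMP2 on chromosome X, the values were -0.06 for ZBTB33, -0.06 for CUL4B, 0.17 for MCTS1 and 0.11 for C1GALT1C1. CUL4A and CUL4B are related scaffold proteins of ubiquitin ligases that lie beside LAMP1 and LAMP2.

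The promoter of LAMP1 is shown because it carries many copies of the E-box CACGTG, which the transcription factor TFEB binds, as do other factors. TFEB and its relatives TFE3 and MITF switch on lysosomal genes when nutrients are short, and LAMP1 is counted among their direct targets. Of the 2 genes, 1 (LAMP1) had a promoter in the RefSeq table. The stretch of 255 bases covers the 250 bases before the start and the first 5 bases of the gene, at chr13:113296989-113297243 on the plus strand of GRCh38.p14. Capitals mark the 6 copies of CACGTG, which reads the same on both strands.
LAMP1 promoter: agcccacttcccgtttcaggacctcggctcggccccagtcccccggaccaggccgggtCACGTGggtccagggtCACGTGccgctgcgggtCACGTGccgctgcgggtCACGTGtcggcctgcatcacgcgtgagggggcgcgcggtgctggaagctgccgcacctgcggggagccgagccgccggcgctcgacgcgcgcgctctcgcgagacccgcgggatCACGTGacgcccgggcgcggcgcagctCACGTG

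The copies began at -192, -176, -159, -142, -28 and -1 relative to the start, so the first 4 were clustered within a short stretch. Of 27305 RefSeq promoters with a window of 300 bases, 7.43% had at least 1 copy, 0.696% at least 2, 0.103% at least 3 and 0.0183% at least 4. LAMP1 had the only window with 5 or more copies. Its window held 2 copies of the longer motif TCACGTGA. At least 2 copies of that motif were found in 23 promoters and at least 3 in 4 promoters. These are matches of letters and do not show that a factor was bound.

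**Figure D3:**
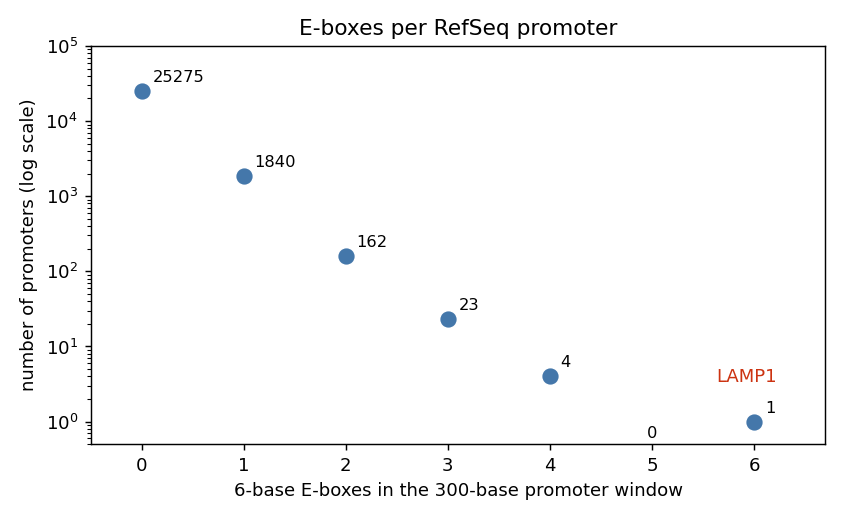
Number of RefSeq promoters (log scale) by the number of 6-base E-boxes in the window of 300 bases. Counts fall from 25275 promoters without a copy to 4 promoters with 4 copies, and the LAMP1 promoter is the one with 6.

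The calls were also counted by the number of E-boxes, with LAMP1 left out because it was selected on this contrast. Of 903 tested genes with at least 1 copy, 33 (3.65%) were lower and 71 (7.86%) were higher with the mimic. Of 8104 tested genes without a copy, 390 (4.81%) were lower and 578 (7.13%) were higher. Of all 14782 genes tested, 4.67% were lower and 6.15% were higher. These include genes without a promoter in the RefSeq table, so the class without a copy is the closer comparison. Of 94 tested genes with 2 or more copies, 4 (4.26%) were lower and 9 (9.57%) were higher. Without NC replicate 2 this class gave 8 lower and 15 higher. It gave 1 and 4 without NC replicate 1, and 0 and 1 without NC replicate 3. Without mimic replicate 1 or 3 it gave 0 and 3, and with upper-quartile scaling 7 and 8. Of 16 tested genes with 3 or more copies, 1 was lower, PTPRS (log2 fold change -0.30, limma adjusted p = 0.012). Without NC replicate 3 or mimic replicate 1 or 3, 0 of these genes passed as lower. The other 15 did not pass with limma. Their log2 fold changes ran from -0.22 to 0.19, of which 10 were below 0 and 5 above it. The class with 3 or more copies gave 1 higher gene with DESeq2, with a pseudocount of 5, and without NC replicate 2. Without NC replicate 2, the genes with at least 1 copy gave 69 lower and 149 higher and those without a copy gave 765 and 1016. Without NC replicate 3, these counts were 6, 7, 44 and 63.

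The genes that encode TFEB and its relatives did not pass the test. TFEB was at 522, 449 and 482 normalised counts in NC and 501, 540 and 483 with the mimic, a log2 fold change of 0.07. It was -0.08 for TFE3 and -0.13 for MITF. Of 18 tested genes of the TFEB family and its nutrient control, only MTOR, the kinase that holds TFEB in the cytosol when nutrients are plentiful, passed. It was at 1520, 1680 and 1540 normalised counts in NC and 1910, 1810 and 1980 with the mimic (log2 fold change 0.27, standard error 0.056, limma adjusted p = 0.0145). This was 5.56% of the list, beside 10.8% of all genes, and the median was 0.04. The same number, 1, passed without NC replicate 2, and 0 passed without NC replicate 3 or mimic replicate 1 or 3.

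Among 28 tested direct TFEB targets other than LAMP1, 5 were lower and 1 was higher with the mimic (21.4%, beside 10.8% of all genes), with a median log2 fold change of -0.08. NEU1, the sialidase that trims sugars from glycoproteins including LAMP1, was at 1260, 1130 and 1240 normalised counts in NC and 992, 997 and 932 with the mimic (log2 fold change -0.31, limma adjusted p = 0.0105). CTSF, a cysteine protease, had the largest drop of the list, from 213, 151 and 195 in NC to 130, 145 and 98.7 with the mimic (-0.58, limma adjusted p = 0.0381). Its log2 fold change was -0.72 without NC replicate 2 and -0.42 without mimic replicate 3. SQSTM1, an autophagy receptor, was lower by a smaller amount (-0.21, limma adjusted p = 0.0317), as were PSAP (-0.20, limma adjusted p = 0.0484) and CTSA (-0.18, limma adjusted p = 0.0296). In CTSF, SQSTM1 and PSAP, NC replicate 2 lay within a short distance of the mimic libraries: PSAP was at 28600 normalised counts there and at 28400 in mimic replicate 2. With that library left out, 8 genes of this list passed. The count fell to 0 without NC replicate 3 and to 1 without NC replicate 1 or mimic replicate 1 or 3.

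Of 40 other tested genes of the lysosomal membrane, 2 were lower and 1 was higher with the mimic (7.5%, beside 10.8% of all genes). The median log2 fold change was -0.01, beside 0.004 for all genes. SIDT2, a transporter of the lysosomal membrane, was at 828, 731 and 780 normalised counts in NC and 615, 694 and 589 with the mimic (log2 fold change -0.30, standard error 0.075, limma adjusted p = 0.0263). HGSNAT, which acetylates heparan sulfate across the membrane, was at 1390, 1340 and 1390 in NC and 1120, 1200 and 1070 with the mimic (-0.28, standard error 0.056, limma adjusted p = 0.0118). LAPTM4B, a membrane protein that sorts cargo in late endosomes, was at 3240, 3510 and 3470 in NC and 3960, 4000 and 4150 with the mimic (0.25, standard error 0.047, limma adjusted p = 0.0104). In all 3 genes the groups did not overlap. The list gave 6 genes that passed when NC replicate 2 or mimic replicate 2 was left out, 1 without mimic replicate 1 or 3, and 0 without NC replicate 3.

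The relatives of LAMP1 that were measured did not pass either. LAMP3, a member of the same family that is mostly made in activated dendritic cells and lung, was low, at 56.3 to 75.4 normalised counts (log2 fold change 0.12). LAMP5 and CD68 were not analysed here. SCARB2 (also called LIMP-2), which carries the enzyme glucocerebrosidase to lysosomes, was at 3340, 3320 and 3610 in NC and 3360, 3640 and 3110 with the mimic (-0.02). CD63 (also called LAMP-3 in older work), a tetraspanin of late endosomes, was at 3880, 4000 and 4120 in NC and 3890, 4020 and 3950 with the mimic (-0.02). The plot of the list shows LAMP1 as its lowest value and LAMP2 near the middle.

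**Figure D4:**
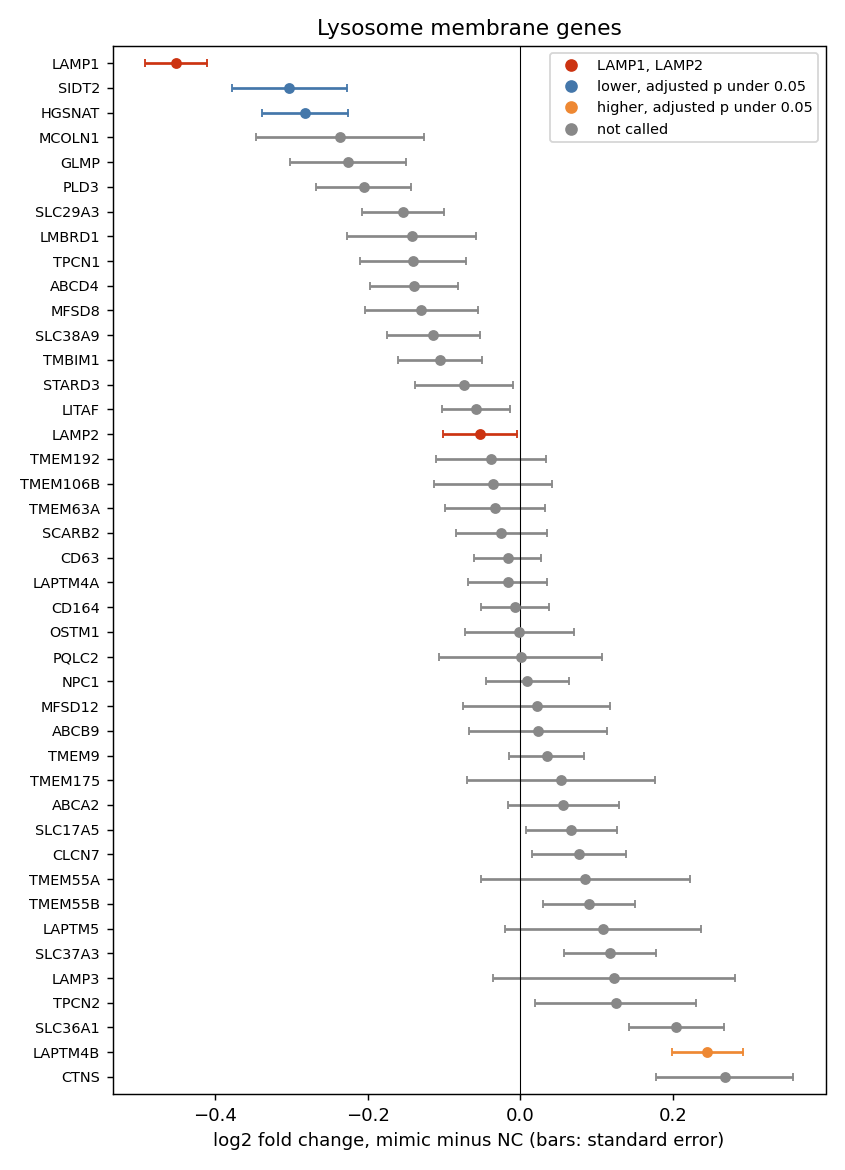
Log2 fold change (mimic minus NC) with its standard error for LAMP1, LAMP2 and the 40 other lysosome membrane genes, ordered by value. LAMP1 is at -0.45, followed by SIDT2 at -0.30 and HGSNAT at -0.28, and LAMP2 is at -0.05.

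Genes that deliver membrane proteins to lysosomes gave 3 higher and 0 lower among 24 tested (12.5%, beside 10.8% of all genes), with a median of 0.02. AP1B1 and AP1M2 are subunits of the adaptor AP-1, which sorts cargo at the trans-Golgi network, and were at 0.28 (limma adjusted p = 0.0113) and 0.17 (limma adjusted p = 0.0383). RAB7A, the small GTPase of late endosomes, was at 0.16 (limma adjusted p = 0.0391). The count was 5 without NC replicate 2, 1 without NC replicate 1 or mimic replicate 2, and 0 without NC replicate 3 or mimic replicate 1 or 3. With upper-quartile scaling it was 1, since AP1M2 and RAB7A did not pass. Of 14 tested genes that position lysosomes in the cell, none passed with limma, DESeq2 or edgeR, and 1 passed without NC replicate 2. An unadjusted p under 0.05 was found in 2 of these 14 genes, beside 4218 (28.5%) of all genes tested.

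Genes of the fusion of autophagosomes with lysosomes, a step at which LAMP2 acts, gave 2 lower and 0 higher among 14 tested (14.3%, beside 10.8% of all genes), with a median of -0.04. GABARAPL1, which coats autophagosomes, was at 2430, 2000 and 2240 normalised counts in NC and 1890, 1820 and 1660 with the mimic (log2 fold change -0.31, limma adjusted p = 0.0192). The second was SQSTM1. VMP1, an autophagy protein whose gene overlaps the one for miR-21, was at 3040, 3490 and 3270 in NC and 3490, 3500 and 3500 with the mimic (0.10, limma adjusted p = 0.226). The same number, 2, passed without NC replicate 2, and 0 passed without NC replicate 1 or 3 or mimic replicate 1 or 3.

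Of 9 tested partners of LAMP2A in chaperone-mediated autophagy, 3 chaperone genes were higher and 1 protease gene was lower with the mimic (44.4%, beside 10.8% of all genes), and the median log2 fold change was 0.24. This median is the value of EEF1A1, which varied widely within both groups (16100, 7760 and 8800 normalised counts in NC and 8280, 17200 and 12800 with the mimic, standard error 0.26), and without this gene the median was 0.14. HSP90AA1 was at 17000, 23800 and 19300 normalised counts in NC and 31000, 26300 and 33600 with the mimic (0.60, standard error 0.11, limma adjusted p = 0.00864). NC replicate 2 was the NC library nearest to the mimic libraries here. HSP90AB1 (0.25, limma adjusted p = 0.0214) and STIP1 (0.38, limma adjusted p = 0.0129), a co-chaperone that links HSP70 and HSP90, were higher too. HSPA8, which recognises the proteins to be degraded, did not pass (0.38, standard error 0.12, limma adjusted p = 0.0564), and its NC replicate 2 at 10800 lay above mimic replicate 2 at 9900. CTSA, a protease that cuts LAMP2A, was the lower gene of the list. When NC replicate 2 or mimic replicate 2 was left out, 5 genes passed. The count was 1 without NC replicate 1 or mimic replicate 1 or 3 and 0 without NC replicate 3.

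Of 38 tested genes in the list of soluble lysosomal hydrolases, 6 were lower and 2 were higher with the mimic, and the other 30 did not pass. PSAP, 1 of the lower genes, encodes the precursor of proteins that activate such enzymes and is not itself a hydrolase. The share that passed was 21.1%, beside 10.8% of all genes, and 4.67% of all genes were lower. The median log2 fold change was -0.12. CTSS, a cysteine protease of antigen processing, was at 514, 538 and 581 normalised counts in NC and 357, 404 and 339 with the mimic (log2 fold change -0.57, standard error 0.084, limma adjusted p = 0.00396). CTSC, which activates serine proteases, was higher (0.23, limma adjusted p = 0.0207). NEU1, CTSA, CTSF and PSAP, given above as TFEB targets, are also in this list. The count was 14 without NC replicate 2, 2 without NC replicate 1 or mimic replicate 1 or 3, and 1 without NC replicate 3. Of 15 subunits of the V-ATPase, the pump that acidifies the lysosome, only ATP6V1B2 passed (0.19, limma adjusted p = 0.0263). This was 6.67% of the list, beside 10.8% of all genes, and the median was 0.03. Leaving out NC replicate 2 gave 2 subunits, as did scaling by total counts or a pseudocount of 5, and leaving out any other library gave 0.

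Of the 12 enzymes that extend the sugar chains carried by LAMP1 and LAMP2, 1 was higher and 1 was lower (16.7%, beside 10.8% of all genes), with a median of -0.04. B3GNT2, which builds poly-N-acetyllactosamine chains, was at 1270, 1320 and 1330 normalised counts in NC and 1550, 1660 and 1490 with the mimic (log2 fold change 0.26, limma adjusted p = 0.0145). B4GALT1, the galactosyltransferase that acts in alternation with it, was at 3180, 3160 and 3280 in NC and 2680, 2790 and 2700 with the mimic (-0.24, limma adjusted p = 0.00929). The groups did not overlap in either gene. Without NC replicate 2, 3 of the enzymes passed, and without NC replicate 3 or mimic replicate 1 there were 0. Of 5 galectins, lectins that bind such chains, LGALS1 passed (0.17, limma adjusted p = 0.0457), which is 1 gene in a list too short for its share to be read against all genes. None did with DESeq2 on the recovered reads, with upper-quartile scaling or without the filter on low values, and 2 did without NC replicate 2. Leaving out any other library gave 0. The median of the galectins was -0.09.

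Over the union of the 11 lists, 13 of 191 tested genes were higher and 11 were lower. This was 12.6%, beside 10.8% of all genes, and the median log2 fold change was -0.01. Without NC replicate 2, 40 genes of the union passed, and 1 did without NC replicate 3. The difference of LAMP1 was larger in size than that of every gene of these lists but CTSF, CTSS and HSP90AA1.

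**Figure D5:**
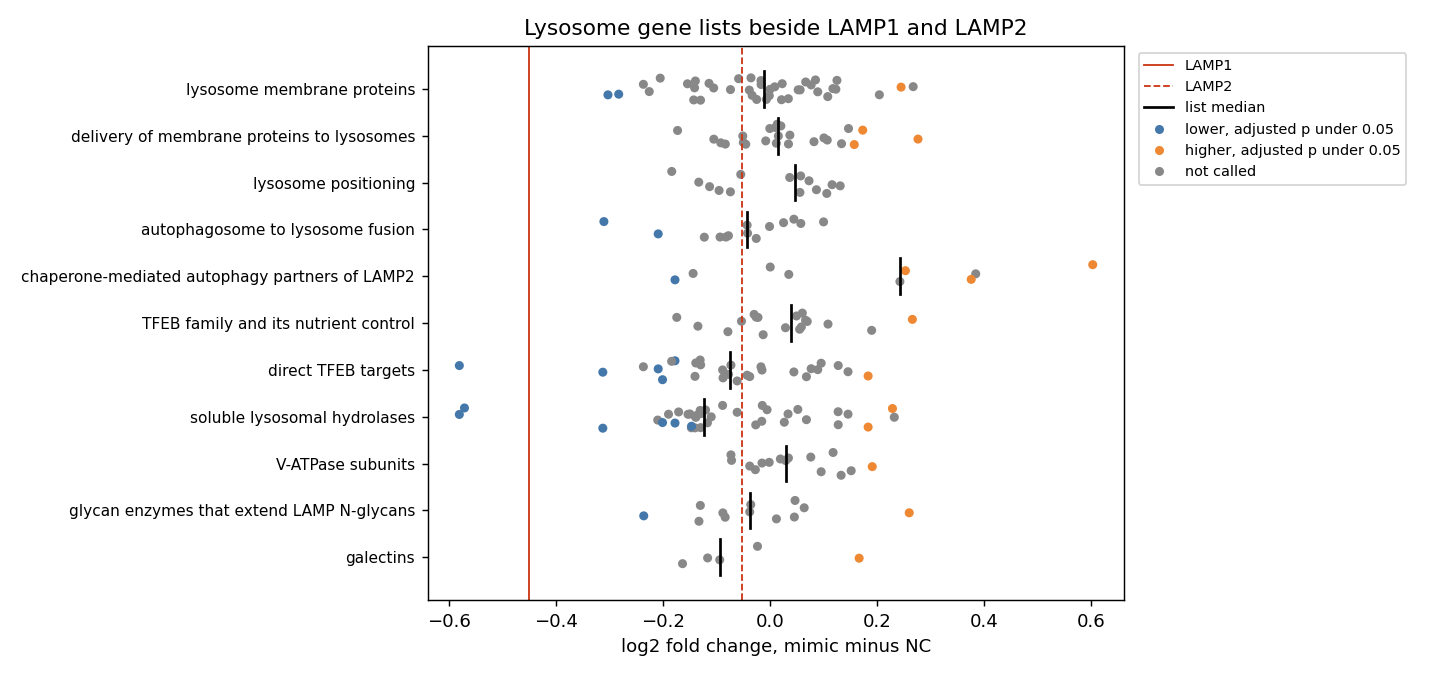
Log2 fold change (mimic minus NC) of each tested gene in the 11 lists; colours mark genes that passed the limma test, black lines are list medians, and red lines are LAMP1 and LAMP2. Vertical scatter within a row only separates the points. The medians lie between -0.12 and 0.24, and the LAMP1 line lies to the left of all points but CTSF and CTSS.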

How the data were processed

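RNA-seq values of 6 HaCaT libraries were taken from the deposited expression table. Per the submitters' processing notes, the authors used bcl2fastq 2.18.12, cutadapt 1.15, TopHat2 2.1.1, featureCounts (Subread 1.5.2) and DESeq2; the genome build and annotation are not given in the sources used here. The deposited values are a signal, namely gene read counts divided by a size factor and rounded to 3 significant digits. Of 23192 values under 100, 100% were whole reads within 0.1 read, so reads could be recovered. Because the values were normalised, the main test was limma 3.58.1 on log2(value + 1), two-sided, for genes with a mean of at least 10, with Benjamini-Hochberg adjustment over all genes. The plan had assumed raw counts and edgeR. On the recovered reads, edgeR 4.0.16 (an alternative added after the unit was known) and DESeq2 1.42.0 (named in the plan) called 1642 and 1589 genes. The procedure was run on simulated data, in which more of the calls were false than the threshold of 0.05 allows. The members and lists were chosen with earlier results of these data known. Named genes are the genes of each list that passed (at most 6 by adjusted p), relatives of LAMP1, TFEB genes, VMP1, and the nearest genes by rank and by correlation. In the lists, 3 genes whose identifier belongs to another locus were left out. Some genes that the naming rule selects are not reported here.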

Additional observations from a re-analysis of the deposited data

How the results depend on the processing

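LAMP1 kept its direction under every alternative run. LAMP2 stayed below 0 as well, but its log2 difference in the main fit was close in size to its standard error of 0.048. Its sign is therefore not settled. LAMP1 was selected on groups that did not overlap, so leaving out a library could not turn its direction. The log2 difference of LAMP1 lay between -0.46 and -0.44, and that of LAMP2 between -0.08 (without mimic replicate 2) and -0.02 (without mimic replicate 3). The difference in their log2 ratio, recomputed only with single libraries left out, lay between -0.44 and -0.36. The number of genes called was 1500 to 1642 with other scalings, tools and pseudocounts and 1443 without the filter on low values; TMM scaling, pseudocounts of 0.5 and 5 and edgeR were added after seeing the data. Leaving out a library changed it most, from 179 without NC replicate 3 to 2963 without NC replicate 2, with 545 without NC replicate 1 and 279, 1540 and 368 without mimic replicates 1, 2 and 3. In the same way, calls among the lysosome membrane genes ranged from 0 (without NC replicate 3) to 6 (without NC replicate 2 or mimic replicate 2), with 1 without mimic replicate 1 or 3. Calls in the union of the lists ranged from 1 (without NC replicate 3) to 40 (without NC replicate 2), with 10, 4 and 6 without NC replicate 1 and mimic replicates 1 and 3. Of the 24 list genes called, 24 kept their call without NC replicate 2 and 1 without NC replicate 3. Fewer libraries leave fewer degrees of freedom; the cause of the uneven change was not tested. The replicate numbers did not pair the libraries (correlations of deviations -0.077, -0.295 and -0.315), and each library correlated best with one of another number (NC replicate 1 with mimic replicate 2 at 0.234, 2 with 3 at 0.43, and 3 with 1 at 0.271); with the replicate block 1202 genes were called, 16 in the union, with 4 hydrolases, 2 TFEB targets, 1 delivery gene, 1 fusion gene and 0 V-ATPase subunits and galectins. Size factors of DESeq2 were not run as a separate scaling, since the deposited values already carry them. At 7021 to 9985 reads of LAMP1 per library, counting error was 1.08%.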
